A study of Mus musculus with 15 samples.

Results

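Integrins are heterodimeric receptors that bind extracellular matrix outside the cell and, through a layered set of adaptor proteins at focal adhesions, actin filaments inside it. The expression of 40 mouse genes of this machinery was followed in primary hepatocytes: 10 integrin alpha subunits, 8 beta subunits and 22 genes for the talin and kindlin activators, the complex around integrin-linked kinase, signalling proteins, actin linkers and the ezrin, radixin and moesin family. The genes were chosen by symbol. A probe set, the group of short probes that reports on a transcript, was used where the platform annotation gave it 1 of these symbols alone, and the probe set with the largest SD over the 15 arrays stood for its gene. Of the 40 genes, 38 were found on the arrays among 18193 genes with such probe sets. The focal adhesion kinase Ptk2 and the kindlin Fermt1 were not matched and were not analysed here. After probe sets that only followed the background of the arrays had been set aside, 30 of the 38 were tested, among 12423 genes in all. Taking the most variable probe set leans towards larger changes where a gene has several to choose from. After that step 61 probe sets were left for the 30 genes and 22096 for all 12423. The lean therefore need not be equal for the 30 genes and for all genes tested.

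The hepatocytes, the epithelial cells that make up most of the liver's mass, came from male C57BL/6 mice, and total RNA from 5 groups of 3 arrays was measured. The groups were freshly isolated cells (t0), cells cultured as a monolayer in a tissue culture dish (TCD) for 4 h or 24 h, and cells cultured as 3D aggregates in a rotating wall vessel (RWV), a slowly turning chamber that keeps cells in suspension, for 4 h or 24 h. The submitters described the replicates as independent. Age, matrix coating and medium are not given in the sources used here. Each value is given on the log2 scale relative to the fresh median of its probe set, so 0 is the fresh level, and no level can be compared between genes.

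Background knowledge frames the order of the results. An integrin that binds its ligand recruits talin and kindlin to its beta tail, and these hold it in its active state. The complex of integrin-linked kinase, PINCH and parvin, the kinases Src and focal adhesion kinase and scaffolds such as paxillin and p130Cas then gather there, and vinculin, zyxin, alpha-actinin, filamin and the Ena/VASP proteins tie the site to actin stress fibres. In the liver, hepatocytes rest on a sparse matrix in the space of Disse and carry few stress fibres, and cells on a rigid dish are known to spread and to build focal adhesions.

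Promoter sequences were available in a RefSeq table (mouse build GRCm38.p6) for 31 of the 40 genes, and 5 are shown because their genes follow the 2 main patterns described below: Vcl, Zyx and Ezr were higher than in fresh cells by 4 h, and Flna and Msn were far lower in RWV than in TCD at 24 h. Each line gives the 250 bases before the annotated transcript start, 5′ to 3′ on the strand of the gene. Capitals mark a CArG box (the element known to bind serum response factor), the sequence GGAATG or its complement CATTCC (the core known to bind TEAD factors) and TGANTCA (the element known to bind AP-1).
Vcl, chr14:20929148-20929397, + strand: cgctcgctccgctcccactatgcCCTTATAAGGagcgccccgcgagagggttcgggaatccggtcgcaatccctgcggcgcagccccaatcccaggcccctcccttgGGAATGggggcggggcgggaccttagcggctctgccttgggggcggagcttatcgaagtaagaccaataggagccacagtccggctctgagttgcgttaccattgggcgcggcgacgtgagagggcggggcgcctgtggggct
Zyx, chr6:42349578-42349827, + strand: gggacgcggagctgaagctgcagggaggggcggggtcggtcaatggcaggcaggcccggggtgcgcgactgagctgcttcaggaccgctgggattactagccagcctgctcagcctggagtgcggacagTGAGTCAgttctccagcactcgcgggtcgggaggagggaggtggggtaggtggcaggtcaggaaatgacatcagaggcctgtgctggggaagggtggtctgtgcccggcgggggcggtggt
Ezr, chr17:6782781-6783030, - strand: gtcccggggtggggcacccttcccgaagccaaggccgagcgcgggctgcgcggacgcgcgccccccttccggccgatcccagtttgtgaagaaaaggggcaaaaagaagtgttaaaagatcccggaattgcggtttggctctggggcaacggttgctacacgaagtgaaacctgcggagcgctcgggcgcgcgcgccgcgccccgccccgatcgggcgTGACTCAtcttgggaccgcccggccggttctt
Flna, chrX:74246535-74246784, - strand: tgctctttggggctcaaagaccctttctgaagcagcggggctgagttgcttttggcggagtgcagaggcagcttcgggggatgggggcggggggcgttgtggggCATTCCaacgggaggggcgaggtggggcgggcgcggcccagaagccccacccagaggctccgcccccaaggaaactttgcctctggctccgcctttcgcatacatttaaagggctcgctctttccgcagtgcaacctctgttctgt
Msn, chrX:96095795-96096044, + strand: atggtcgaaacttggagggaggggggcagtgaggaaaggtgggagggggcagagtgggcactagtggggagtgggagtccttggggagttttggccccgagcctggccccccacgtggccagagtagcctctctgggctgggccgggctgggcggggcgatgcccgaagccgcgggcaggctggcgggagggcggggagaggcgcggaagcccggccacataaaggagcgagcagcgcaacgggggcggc

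In Vcl the CArG box lay 227 to 218 bases before the start and GGAATG 143 to 138 bases before it. TGANTCA lay 121 to 115 bases before the start of Zyx and 32 to 26 bases before that of Ezr, and CATTCC lay 146 to 141 bases before that of Flna. None of the 3 motifs was found in these 250 bases of Msn. Searched on both strands in windows of the same length, the CArG box was present in 1.47%, GGAATG in 12.6% and TGANTCA in 6.75% of 32851 promoters. Of the 31 genes with a promoter, 3 held a CArG box, 4 held GGAATG and 3 held TGANTCA, the last being Zyx, Actn4 and Ezr. Here and below, a gene with several promoters was counted if any of them matched. The shares count single promoters, so gene counts lean higher beside them. The GC box GGGCGG, the known site of Sp1, was found in 20 of the 31 and in 32.7% of all promoters. These matches describe letters in a window and were not tested for a relation to the measured changes.

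The arrays had medians over all probe sets between -0.0769 and 0.0766. The 3 arrays of a group limit the precision of each mean. Replicate 2 of TCD at 4 h stood apart: its hybridisation controls, RNAs added in fixed amounts, had a median of 1.09 against -0.754 to 0.171 on the other arrays, and an estimate of array reliability gave it a weight of 0.171. Without it, the calls between the vessels at 4 h and 24 h and in TCD at 24 h against fresh cells were the same 0, 12 and 23 genes, and the calls that changed elsewhere are given beside their comparison. Albumin, Alb, the defining product of hepatocytes, stayed within 0.15 of the fresh median in every group mean. Of 9 hepatocyte markers tested, 8 were lower than in fresh cells at 24 h in TCD and 8 in RWV, and 4 differed between the vessels.

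Between the vessels, none of the 30 genes passed the test at 4 h, and 12 did at 24 h. At 24 h, 10 genes were lower in the aggregates (RWV) than in the monolayer (TCD): the laminin receptor subunit Itga3, the shared subunit Itgb1, the kindlin Fermt2, Ilk and Lims1 of the integrin-linked kinase complex, the kinase Src, and Enah, Flna, Actn1 and Msn, which bind actin. The 2 genes that were higher in RWV were Itgb5, the beta subunit of a vitronectin receptor, and Parva, the parvin of the integrin-linked kinase complex. Among all 12423 genes, 6.86% were lower and 8.36% higher in RWV at 24 h (15.2% in all). The median log2 difference was -0.47 over the 30 genes and 0 over all genes tested. At 4 h, 6.17% of all genes were called, 5.5% higher and 0.668% lower, and the medians were -0.05 over the 30 genes and -0.01 over all. Calls were made with limma, a linear model that pools the spread of all genes, where p stayed below 0.05 after Benjamini-Hochberg adjustment. At 4 h, 4 of the 30 had an unadjusted limma p below 0.05 (Itgb1, Fermt2 and Parva lower and Pxn higher in RWV). The share of all genes at that threshold was not computed, so these 4 are not read as differences. No tool other than limma was run. Fewer cells of a type that expresses a gene and less of its RNA per cell cannot be told apart in such samples.

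**Figure D1:**
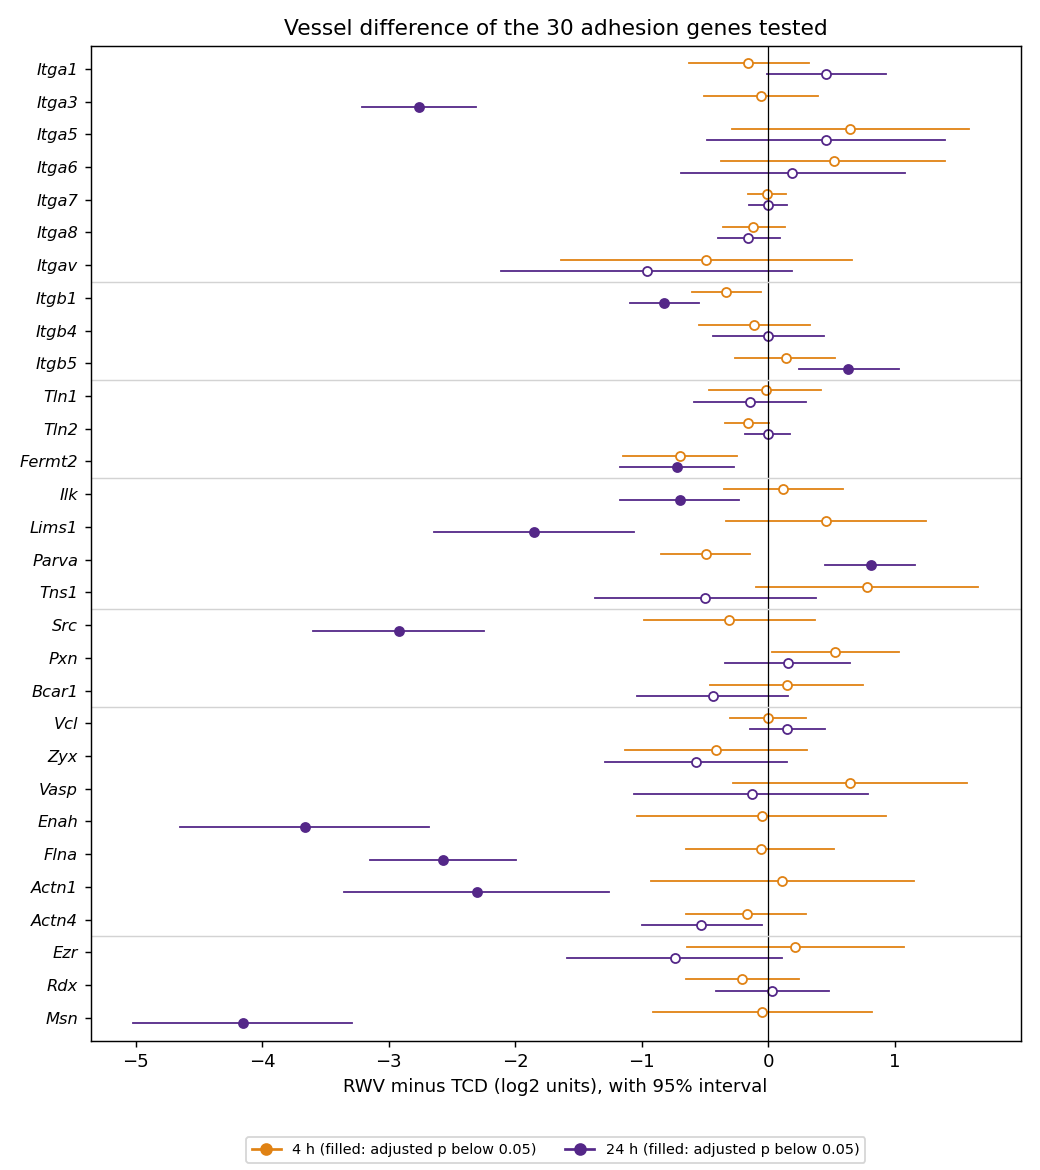
RWV minus TCD difference (log2 units) of the 30 genes tested, at 4 h (orange) and 24 h (purple), ordered by role from integrins at the top to the ezrin family at the bottom. Points are limma estimates, lines are 95% intervals and filled points passed the test. No 4 h point is filled, and at 24 h the filled points run from -4.15 for Msn to 0.81 for Parva.

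Among the integrin subunits, Itga3 differed most between the vessels. Its TCD arrays at 24 h read 2.79, 3.38 and 3.76, and its RWV arrays 0.31, 0.48 and 0.86. The fresh and 4 h arrays lay between -0.1 and 0.16. The 24 h monolayers thus stood far above all other arrays, and the 24 h aggregates, whose change from fresh cells missed the threshold (0.52, adjusted p = 0.0519), did not overlap with them. The difference was -2.76 ± 0.207 (limma standard error, as for all errors after ± unless an SD is named; adjusted p = 4.95e-06), a 6.77-fold lower signal in RWV. The other 2 probe sets of Itga3 read -0.66 and -0.5 and were not called, so the size of the difference rests on the probe set used.

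Itgb1, which pairs with Itga3 and with most other alpha subunits, read 1.56, 1.67 and 1.82 in TCD and 0.99, 0.66 and 0.93 in RWV at 24 h. Its fresh arrays lay between -0.05 and 0.04. Both 24 h groups were therefore above fresh cells in this probe set, with every monolayer array above every aggregate array. The difference was -0.82 ± 0.123 (adjusted p = 0.000792), and 2 of 3 probe sets were called lower. Against fresh cells, 2 of 3 were called higher in TCD at 24 h and 1 of 3 in RWV.

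Itgb5 ran the other way. Its 24 h arrays read 1.61, 1.02 and 1.66 in TCD and 1.84, 2.1 and 2.24 in RWV, from -0.04 to 0.41 on the fresh and 4 h arrays. The aggregates were thus the higher group, without overlap but with a small gap. The difference was 0.63 ± 0.18 (adjusted p = 0.0333), with 3 of 4 probe sets called higher. The call was lost without TCD replicate 2, RWV replicate 2 or RWV replicate 3 at 24 h (adjusted p = 0.102 to 0.128). Itgav, the alpha subunit that pairs with Itgb5, differed by -0.96 with a 95% interval from -2.11 to 0.19 and was not called.

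The other alpha subunits tested gave no call between the vessels at either time. At 24 h the difference of Itga6, a laminin receptor subunit, was 0.19 (95% interval -0.69 to 1.08), that of the fibronectin receptor subunit Itga5 was 0.46 (-0.48 to 1.4) and that of the collagen receptor subunit Itga1 was 0.46 (-0.01 to 0.93). These intervals still allow higher values in RWV by about the size of the Itgb1 difference, but not lower values by that size. Itga7, Itga8 and Itgb4 stayed within 0.15 of 0 in every cultured group mean. The 8 integrin genes set aside as background were Itga2, Itga4, Itga9, Itgb2, Itgb3, Itgb6, Itgb7 and Itgb8. They ranged from -0.37 to 0.51 over all arrays, with SDs of 0.0453 to 0.217, and whether they were expressed at all cannot be read from values without a level.

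Of the integrin activators, the kindlin Fermt2 was the one called at 24 h. It read 0.47, 0.92 and 0.3 in TCD and 0.19, -0.63 and -0.03 in RWV. The groups did not overlap, but the lowest TCD array and the highest RWV array lay closer together than the arrays within either group. The difference was -0.72 ± 0.206 (adjusted p = 0.0348). It was called in 1 of 3 probe sets and was lost without either of 2 TCD or 2 RWV arrays at 24 h (adjusted p = 0.0595 to 0.148). At 4 h Fermt2 was also lower in RWV by a similar amount, -0.7 ± 0.206, which missed the threshold (adjusted p = 0.0701), and the difference between the 2 times was -0.02 (95% interval -0.66 to 0.62). Talin 1, Tln1, the main activator of integrins, differed by -0.14 at 24 h (95% interval -0.59 to 0.3).

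In the integrin-linked kinase complex, the adaptor Lims1 (PINCH1) fell furthest behind in the aggregates. Its 24 h arrays read 5.81, 6.36 and 6.48 in TCD and 5.03, 3.81 and 4.25 in RWV, and its fresh arrays lay between -0.21 and 0.4. Lims1 was thus strongly raised in both vessels and more so in the monolayers, with no overlap. The difference was -1.85 ± 0.363 (adjusted p = 0.00427), and all 3 probe sets were called lower.

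Ilk itself, the pseudokinase at the centre of the complex, read 1.22, 0.98 and 1.26 in TCD and 0.24, 0.48 and 0.62 in RWV at 24 h. Its difference was -0.7 ± 0.216 (adjusted p = 0.0471). The 2 groups did not overlap, yet the call sat close to the threshold and was lost in 10 of 15 fits that each left out 1 array (adjusted p = 0.0577 to 0.142).

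Parva, which binds Ilk and actin, read -2.95, -3.05 and -2.67 in TCD and -2.38, -2.2 and -1.67 in RWV at 24 h, with a difference of 0.81 ± 0.162 (adjusted p = 0.00509). The aggregates were nearer to fresh cells in this probe set, whose sequence is shared between transcripts. The other probe set of Parva gave 0.49 between the vessels (adjusted p = 0.166) and was above fresh cells, not below, at 0.82 in RWV at 24 h (adjusted p = 0.00711). The direction of Parva in culture is therefore uncertain. Tensin, Tns1, which joins integrin tails to actin, gave no call between the vessels (-0.5, 95% interval -1.37 to 0.38, at 24 h).

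Of the signalling proteins, the tyrosine kinase Src read 4.07, 4.94 and 4.91 in TCD and 1.89, 1.11 and 2.14 in RWV at 24 h. The fresh arrays lay between -0.04 and 0.37. Every monolayer array was higher than every aggregate array. The difference was -2.92 ± 0.309 (adjusted p = 6.7e-05), a 7.58-fold lower signal in RWV, and both probe sets were called lower. The scaffolds paxillin, Pxn (0.16, 95% interval -0.34 to 0.65), and p130Cas, Bcar1 (-0.44, -1.04 to 0.16), were not called.

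The actin linkers split into genes with large differences and genes with none that passed the test. Enah, the Ena/VASP protein that speeds the growth of actin filaments, read 2.13, 3.98 and 4.72 in TCD and -0.05, -0.04 and -0.08 in RWV at 24 h. On the fresh and 4 h arrays it lay between -0.06 and 0.09. It was thus high on the 24 h TCD arrays alone, and its RWV values at 24 h were close to the array background medians of -0.0544 to -0.03. The difference was -3.66 ± 0.451 (adjusted p = 0.000211). The other probe set of Enah read -0.77 and was not called. Since Enah followed the background outside TCD at 24 h, the size of its fold depends on the floor that the processing sets for weak signals.

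Flna, the filamin that crosslinks actin and binds beta integrin tails, read 5.81, 5.35 and 6.08 in TCD and 3.55, 2.97 and 3.01 in RWV at 24 h. Its fresh arrays lay between -0.16 and 0.52. Flna was raised in both vessels, and the lowest monolayer array was well above the highest aggregate array. The difference was -2.57 ± 0.268 (adjusted p = 5.95e-05), a 5.94-fold lower signal in RWV, from its only probe set.

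Actn1, the alpha-actinin of stress fibres and focal adhesions, read 4.86, 5.43 and 5.48 in TCD and 3.05, 2.18 and 3.64 in RWV at 24 h. The difference was -2.3 ± 0.478 (adjusted p = 0.00613), and all 3 probe sets were called lower. The related Actn4 differed by -0.53 ± 0.218 and missed the threshold (adjusted p = 0.138). Vinculin, Vcl, which clamps talin to actin, differed by 0.15 at 24 h (95% interval -0.14 to 0.45) and by 0 at 4 h (-0.3 to 0.3), intervals that leave no room for a change like that of Flna. Zyxin, Zyx, a LIM protein of stress fibres, differed by -0.57 (-1.29 to 0.15), and Vasp, the paralogue of Enah, by -0.13 (-1.06 to 0.79).

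Moesin, Msn, showed the largest difference of the 30 genes. It read 4.5, 5.31 and 5.93 in TCD and 1.63, 0.05 and 1.61 in RWV at 24 h, and between -0.2 and 0.15 on the fresh and 4 h arrays. RWV replicate 2 was still at the fresh level, while every monolayer array was far above it. The difference was -4.15 ± 0.397 (adjusted p = 3.09e-05), a 17.8-fold lower signal in RWV. The other probe set of Msn read -4.7 and was called too. Its relatives ezrin, Ezr, which links microvilli to actin (-0.74, 95% interval -1.59 to 0.11), and radixin, Rdx, known as the family's main member at the bile canaliculus (0.03, -0.41 to 0.48), were not called.

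**Figure D2:**
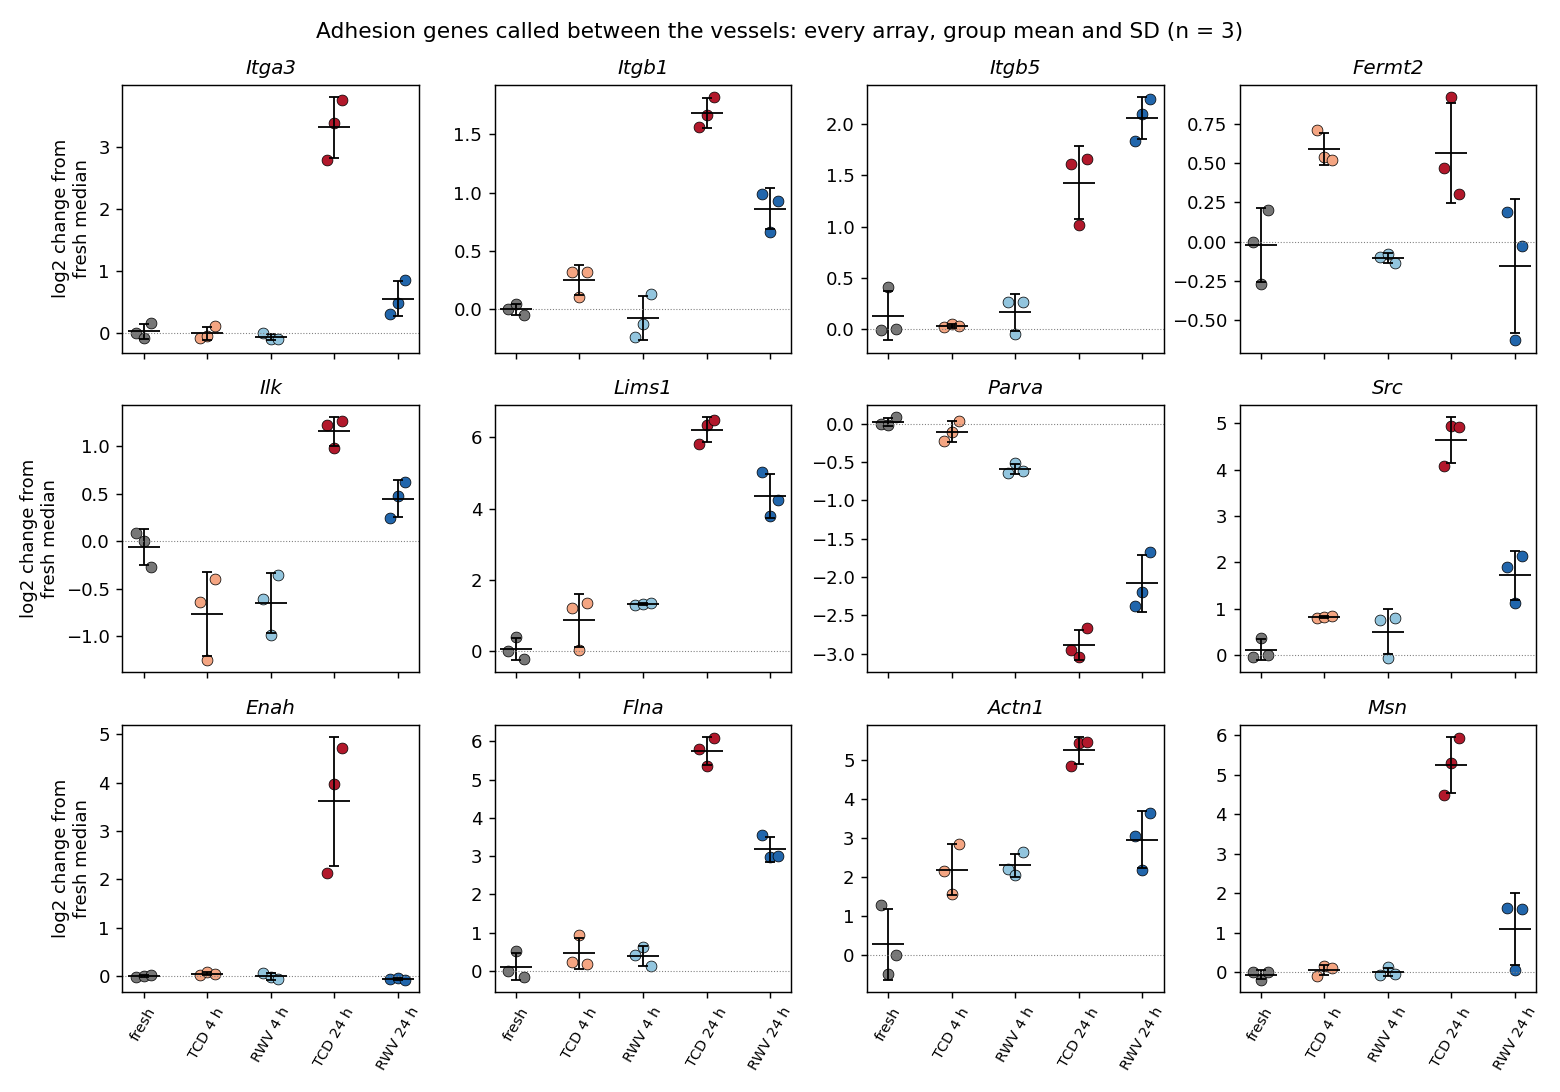
Log2 change from the fresh median on each of the 15 arrays for the 12 genes called between RWV and TCD at 24 h. Points are arrays, and the bar and whiskers are the group mean and SD (n = 3); the vertical scale differs between panels. In all 12 panels the 24 h TCD points (red) and RWV points (blue) do not overlap, and RWV is higher only for Itgb5 and Parva. The genes were picked by their calls on these arrays, so the separation adds no support, and the share of all genes without overlap was not computed.

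**Figure D3:**
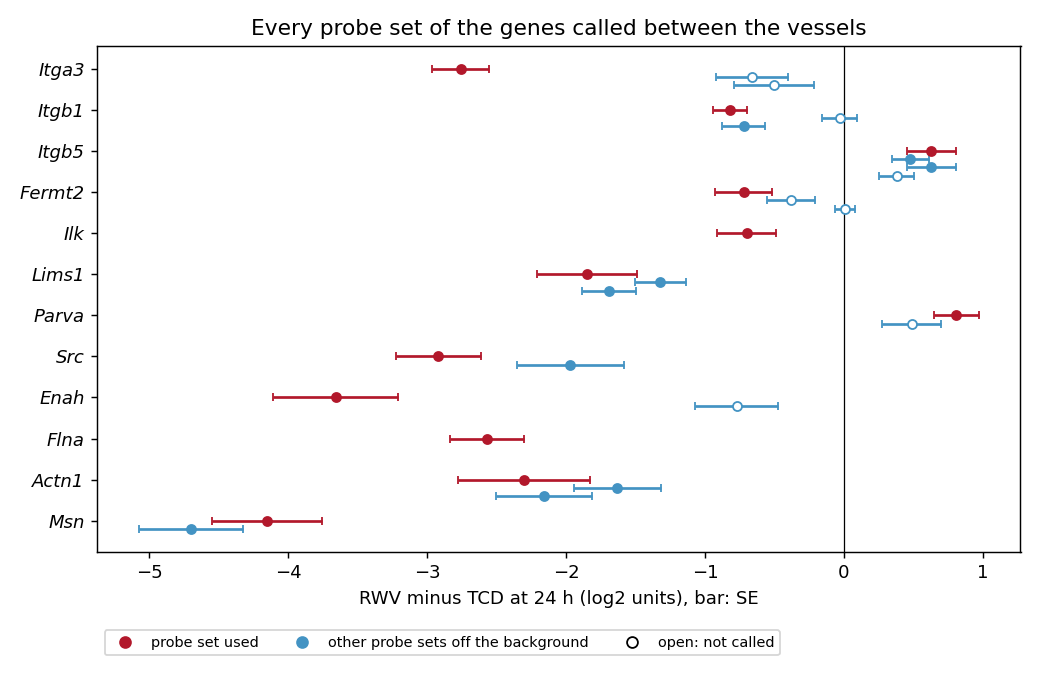
RWV minus TCD difference at 24 h (log2 units) of every probe set off the background for the 12 called genes, with its standard error as the bar. Red marks the probe set used, blue the others, and open points were not called. Lims1, Src, Actn1 and Msn are low in every probe set, whereas Itga3, Fermt2 and Enah are called in 1 alone.

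Other values moved with the 24 h comparison. Of 7 cholangiocyte markers on the arrays, genes of the bile duct epithelium, 4 were tested. Their mean log2 change was 4.35 to 5.5 on the TCD arrays and 1.56 to 2.5 on the RWV arrays. Krt19 (-4.31), Cldn4 (-4.31) and Epcam (-1.11) were lower in RWV, Sox9 was not called (-1.85), and Krt19 averaged -0.07 in RWV. Of 11 stellate cell and fibroblast markers, 6 were tested, with means of 0.84 to 0.95 in TCD and -0.05 to 0.31 in RWV. Only Reln differed (-4.95), and Acta2, Dcn, Pdgfrb, Col1a2 and Des averaged between -0.12 and 0.04 at 24 h in either vessel. Of 9 leukocyte markers tested, whose means were 0.68 to 1.35 in TCD and 0.82 to 2.35 in RWV, Cd68 alone was called (-1.21), while Ptprc, which marks all leukocytes, averaged -0.03 and 0.03. The other 8 had positive differences that were not called, among them Cd5l (1.68, adjusted p = 0.079), Marco (1.64, 0.0638), Vsig4 (1.23, 0.242) and Lyz2 (1.06, 0.44). Against fresh cells, Cd68 was higher at 24 h in TCD, and Cd68, Lyz2 and Marco were higher in RWV. Among the 9 hepatocyte markers, Hnf4a (1.37, adjusted p = 0.0015), Cebpa (1.37, 0.000276) and Apob (0.9, 0.0014) were higher in RWV than in TCD at 24 h and Cps1 was lower (-1.55, 0.00949). Of 5 endothelial markers tested, with means of -0.49 to -0.3 in TCD and -1.04 to -0.17 in RWV, Stab2 alone was called (-2.36). The control probe sets at the 3′ end of Actb minus those at its 5′ end, a measure of RNA integrity relative to fresh cells, gave -0.447 to -0.431 in TCD and -0.26 to -0.218 in RWV, and those of Gapdh averaged -0.0354 and -0.0578. The part of these in the integrin results was not tested.

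Whether the vessel difference changed with time was tested directly, as the difference at 24 h minus that at 4 h. It passed for 8 of the 30 genes, with 7 more negative at 24 h (7.73% of all genes) and Parva more positive (4.93%). The interaction called 12.7% of all genes, and the medians were -0.36 over the 30 and 0 over all. Msn stood at -4.1 ± 0.561, Enah at -3.61 ± 0.638, Itga3 at -2.7 ± 0.292, Src at -2.62 ± 0.437 and Flna at -2.51 ± 0.379. Actn1 (-2.42 ± 0.676, adjusted p = 0.0364) lost its call in 9 of 15 fits that left out 1 array (adjusted p = 0.0548 to 0.0861), among them the fit without the deviating TCD array (-2.1, adjusted p = 0.0726). Itgb1 (-0.49, adjusted p = 0.0866), Ilk (-0.82, adjusted p = 0.101) and Itgb5 (0.5, adjusted p = 0.232) were called at 24 h but did not pass this test, so a change with time was not shown for them.

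Against fresh cells, 4 of the 7 actin linkers tested had risen by 4 h in TCD, and 4 had risen in RWV. At 4 h in TCD, 8 of the 30 genes were higher and 3 lower (9.54% and 15.9% of all genes, 25.5% in all), and in RWV 9 were higher and 3 lower (15.1% and 14.4%, 29.6% in all). The medians over the 30 were 0.15 in TCD and 0.04 in RWV, against -0.05 and -0.07 over all genes. Both comparisons use the same 3 fresh arrays, so their values are given side by side.

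Vcl read 2.11, 2.11 and 1.88 in TCD and 2.03, 2.07 and 2.02 in RWV at 4 h, against 0, 0.34 and -0.06 in fresh cells. Every cultured array was far above every fresh array, and the change was 1.94 ± 0.136 in either vessel (adjusted p = 1.13e-06 in TCD and 9.58e-07 in RWV). Zyx read 2.68, 2.4 and 3.08 in TCD and 2.34, 1.86 and 2.74 in RWV, against 0, 0.52 and -0.93 in fresh cells. It rose by 2.86 ± 0.329 in TCD and 2.45 ± 0.329 in RWV. The second probe set of Vcl was called in both vessels as well (1.53 and 1.7), whereas that of Zyx was not (0.25 and 0.14).

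The alpha-actinins rose too, Actn1 by 1.92 ± 0.478 in TCD and 2.04 ± 0.478 in RWV and Actn4 by 1.05 ± 0.218 and 0.88 ± 0.218. Of the 3 probe sets of Actn1, 2 were called in each vessel, and its fresh arrays spread widely (1.29, -0.48 and 0). The scaffold Bcar1 rose by 1.59 ± 0.277 and 1.73 ± 0.277, and Ezr by 1.61 ± 0.392 and 1.82 ± 0.392. Itga6 was the integrin subunit called at 4 h of the 10 tested, and Itgav was called in TCD in some other fits given below. The arrays of Itga6 stood at 3.02, 2.67 and 1.06 in TCD and 2.52, 2.88 and 2.9 in RWV. It rose by 2.26 ± 0.405 and 2.78 ± 0.405, and its second probe set gave 2.26 and 3. By contrast, Flna, Msn, Enah, Itga3 and Vasp, all high in the 24 h monolayers, gave 4 h changes from -0.09 to 0.82 with no call. With only the groups compared, Actn1 (adjusted p = 0.0963), Actn4 (0.0742), Ezr (0.0871) and Itga6 (0.0552) lost their TCD calls. Actn4 lost its RWV call as well (0.0777).

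Some 4 h calls differed in their side of the threshold between the vessels, which does not show a difference between them, since no gene of the 30 passed the direct test at 4 h. In TCD alone, Fermt2 was called higher (0.61) and Ilk (-0.7) and Tns1 (-1.53) lower, and in RWV alone Lims1 (1.27) and Pxn (0.94) were called higher and Tln1 (-0.6) and Parva (-0.62) lower. Rdx was called lower at -0.63 in TCD and -0.84 in RWV. Without the deviating TCD array, Fermt2 (adjusted p = 0.0803), Ilk (0.108) and Rdx (0.12) lost their TCD calls, and Itgav (1.99, adjusted p = 0.00842) and Lims1 (1.22, adjusted p = 0.0151) gained one, which left 9 higher and 1 lower. On that array Itgav read 0.13 against 2.05 and 1.84 on the other 2, and Lims1 0.03 against 1.21 and 1.37. Without fresh replicate 1, 7 genes were called in TCD, all higher. In RWV, Ilk gained a call without the deviating TCD array (-0.59, adjusted p = 0.0207). Arrays with the same replicate number deviated together between fresh cells and both 4 h groups (correlations of 0.25 to 0.33 for TCD and 0.27 to 0.28 for RWV). With the replicate number as a block, Itgav (1.39, adjusted p = 0.0498) and Tln1 (-0.58, 0.0361) were called in TCD, Fermt2 (0.61, 0.0599) and Rdx (-0.63, 0.0558) were not, and Ilk was called in RWV (-0.59, 0.0405). Over all fits with 1 array left out, the TCD calls of Fermt2 (10 arrays), Rdx (9 arrays), Ilk (3 arrays) and Tns1 (3 arrays) were lost. In RWV those of Tln1 (8 arrays) and Lims1 (4 arrays) were lost.

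**Figure D4:**
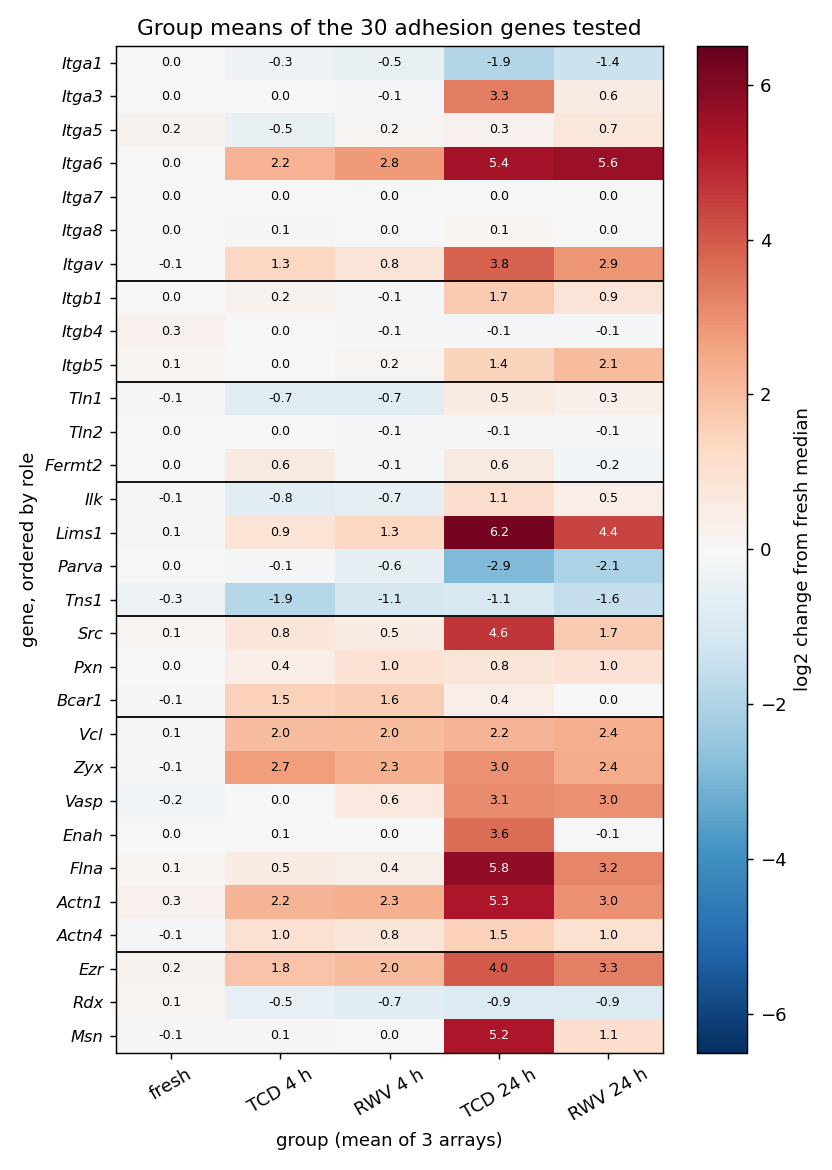
Mean log2 change from the fresh median of each group (3 arrays) for the 30 genes tested, ordered by role with lines between roles. Red is above and blue below the fresh median, and the number in each cell is the mean. Vcl and Zyx are near their 24 h means by 4 h, whereas Flna, Msn, Src and Itga3 are high in the TCD 24 h column and lower in the RWV 24 h column.

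By 24 h, 20 of the 30 genes were higher and 3 lower than in fresh cells in TCD (32.8% and 23.4% of all genes, 56.2% in all), and 15 were higher and 4 lower in RWV (30.7% and 19.2%, 49.9% in all). The medians were 1.44 in TCD and 0.69 in RWV, against -0.01 and 0.01 over all genes. All 7 actin linkers tested were higher in TCD and 6 in RWV, Enah being the exception (-0.05). Of the 10 integrin subunits tested, 5 were higher in TCD and 4 in RWV, and Itga1 was lower in each.

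Itga6 rose most among the integrins and reached similar values in the vessels: 5.38, 5.07 and 5.8 in TCD and 5.47, 5.31 and 6.04 in RWV. The 2 groups overlapped. Against fresh cells it was higher by 5.43 ± 0.405 and 5.62 ± 0.405, and by 4.84 and 5.06 in its second probe set. Itgav rose by 3.87 ± 0.526 in TCD and 2.91 ± 0.526 in RWV, although 1 of its 3 probe sets stayed at -0.15 and 0.15. Itga1, the collagen receptor subunit known from resting hepatocytes, read -1.51, -2.27 and -1.86 in TCD and -1.76, -1.3 and -1.2 in RWV. It had fallen by 1.88 on the log2 scale in TCD and by 1.41 in RWV (adjusted p = 1e-05 and 0.000147).

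Lims1 showed the largest rise of the 30 in TCD, 6.16 ± 0.363, against 4.3 ± 0.363 in RWV. All 3 of its probe sets were called higher, from 2.86 to 6.16 in TCD and from 1.16 to 4.3 in RWV. Its rank therefore rests on the probe set used. Flna rose by 5.63 ± 0.268 and 3.06 ± 0.268, Msn by 5.31 ± 0.397 and 1.16 ± 0.397 and Src by 4.53 ± 0.309 and 1.61 ± 0.309. The RWV values of the last pair were fragile. Msn lost its RWV call without any of 5 single arrays (adjusted p = 0.0546 to 0.116). It also lost it in the mean of probe sets (0.77, adjusted p = 0.0901) and with only the groups compared (0.0957). The second probe set of Msn was not called in RWV (0.39), and that of Src stood at -0.03. Vasp rose by 3.26 ± 0.424 in TCD and 3.13 ± 0.424 in RWV and Ezr by 3.78 ± 0.392 and 3.04 ± 0.392, so these genes rose in the aggregates as well. Rdx had fallen by 1.03 on the log2 scale in TCD and by 1 in RWV, with neither of its other probe sets called in RWV. Without the deviating TCD array at 4 h, Tln1 (0.46, adjusted p = 0.0472) and Ilk (0.51, adjusted p = 0.0257) were also called higher in RWV. Tns1 was lower in RWV (-1.23, adjusted p = 0.022), a call lost without any of 4 single arrays. In TCD it stood at -0.74 (adjusted p = 0.139), though 1 of its 3 probe sets was called lower. It was also called lower in TCD in the mean of probe sets (-0.66, adjusted p = 0.0313) and with array weights (-1.04, 0.021).

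Within each vessel, the step from 4 h to 24 h separated early from late genes. In TCD 15 of the 30 were higher and 3 lower at 24 h than at 4 h (36.1% and 19.5% of all genes, 55.6% in all), and in RWV 13 were higher and 3 lower (26.4% and 15.1%, 41.6% in all). The medians over the 30 were 0.99 in TCD and 0.43 in RWV, against 0.06 and 0.04 over all genes. Vcl was not called after 4 h, with steps of 0.18 (95% interval -0.12 to 0.47) in TCD and 0.33 (0.04 to 0.63) in RWV, nor was Zyx, with 0.25 (-0.46 to 0.97) and 0.09 (-0.63 to 0.81). Bcar1 fell back from its early rise, by 1.05 on the log2 scale in TCD and by 1.63 in RWV (adjusted p = 0.00633 and 0.000469). Its arrays had read 1.13, 1.4 and 1.89 in TCD and 1.11, 1.59 and 2.16 in RWV at 4 h, and they read 0.3, 0.36 and 0.63 and -0.27, -0.08 and 0.32 at 24 h. Actn1 went on rising in TCD, by 3.06 ± 0.478 (adjusted p = 0.000149), whereas its step in RWV was 0.65 (95% interval -0.4 to 1.69). Flna stepped up by 5.28 ± 0.268 in TCD and 2.78 ± 0.268 in RWV. The RWV steps of Msn (1.09), Itga3 (0.61) and Ezr (1.22) were called, but were lost without any of 12, 5 and 4 single arrays, for Msn among them the deviating TCD array (adjusted p = 0.0523). Actn4 gained a TCD call without that array (0.65, adjusted p = 0.0408) and with the replicate number as a block (0.53, adjusted p = 0.0498), where same-numbered arrays of TCD at 4 h and 24 h correlated at 0.12 to 0.23. Tln1 rose by 1.19 in TCD and 1.07 in RWV. Its other 2 probe sets were not called in this step and reached down to -0.4 in TCD and -0.56 in RWV. In the mean of its probe sets the calls were lost (0.24, adjusted p = 0.127, in TCD and 0.17, 0.331, in RWV). The other 2 probe sets did not follow it in the comparisons with fresh cells either (-0.62 to 0.04).

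The promoter motifs shown above were counted over both patterns. Vcl, Zyx, Actn1, Actn4, Bcar1 and Ezr, the genes with a promoter sequence that were higher than fresh cells at 4 h in TCD and in RWV, held a CArG box in 1 of 6, GGAATG in 2 of 6 and TGANTCA in 3 of 6. Of the 10 genes lower in RWV at 24 h, 1 held a CArG box (Fermt2), 2 held GGAATG (Itgb1 and Flna) and 0 held TGANTCA. All 6 and all 10 held GGGCGG. The groups are small and were chosen on the measured values, so the counts are a description.

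A wider list of 120 adhesion genes outside the 40 was described in the same way, of which 109 were on the arrays and 89 were tested. At 24 h, 4 were higher and 10 lower in RWV, with a median of -0.14. At 4 h, 3 were higher and 1 lower (median -0.04), and in the interaction 2 were higher and 11 lower (median -0.15). These 14, 4 and 13 calls of 89 stand beside 15.2%, 6.17% and 12.7% of all genes, and no excess over all genes was tested or is read from them. Among 16 extracellular ligands the calls at 24 h were thrombospondin 1, Thbs1, a matrix protein of platelets and wounds (-4.75 ± 0.539, adjusted p = 0.00011), and the laminin chain Lamb3 (-0.55). Thbs1 averaged 4.72 in TCD and -0.03 in RWV. Of 16 kinases, phosphatases and GTPases, 4 were lower: the Src family kinase Fyn (-2.74 ± 0.346), the relative of focal adhesion kinase Ptk2b (-1.19), and the GTPases Rac1 (-0.61) and Rap1b (-0.51). Of 11 membrane partners, the urokinase receptor Plaur (-2.3) and the hyaluronan receptor Cd44 (-2.11) were lower and the tetraspanin Cd9 (0.98) was higher.

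Of 18 further actin linkers and myosin genes, Pdlim5 was lower (-1.73), while Mylk, the kinase of myosin light chains (1.29), and the light chain Myl12b (1.04) were higher in RWV at 24 h. Among 26 adaptors, Sorbs2 was higher (1.34) and Lims2, the paralogue of Lims1, lower (-0.97). The calls at 4 h were Git2 (1.61), Crkl (0.83) and the integrin partner Slc3a2 (0.65), all higher in RWV, and Zfyve21 (-0.7). In the interaction, Pdlim7 (-2.58) and Asap1 (-1.18) were called without a call at either time. The 2 other integrin subunits tested were not called in any comparison.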

How the data were processed

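Gene expression of primary mouse hepatocytes was measured on 15 Affymetrix arrays, 3 for each of 5 groups. The authors deposited log2 values from GCRMA (background correction by probe sequence, normalisation between arrays, probe set summary), per the submitters' processing notes, which give no version. The median of the 3 fresh arrays was 0 in each of 45101 probe sets, so it had been subtracted. That step was inferred from the values, and log base 2 from GCRMA's usual scale. Symbols came from the platform annotation, which may be old: 34945 probe sets carried 1 symbol, 932 several, 9160 none and 64 were controls.

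Probe sets were set aside as background where the SD was below 0.5 and the correlation with the per-array median of the least variable 20% of probe sets was above 0.8, which held for 12849 of those with 1 symbol. The probe set with the largest SD stood for its gene. Of 96 probe sets of the 40 genes, 61 were off the background. A gene could pass the filter by being high in 1 group, so counts over the 30 genes of the list that were tested are descriptions, read beside the share of all genes called. Group means were set against each other in R 4.3.3 by limma 3.58.1 (lmFit, contrasts.fit, eBayes) with the package data.table in version 1.17.8, all 15 arrays in 1 fit (10 residual degrees of freedom), and p was adjusted by Benjamini-Hochberg over 12423 genes within each comparison. The method was tested on simulated data. Their other probe sets were fitted with all 22096 probe sets off the background.

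The genes, lists, filter and tests were chosen with earlier results of these data known. All 40 genes were accounted for, those called between vessels with values per array. Of the other adhesion genes, up to 4 called genes of each list with the largest change were named per vessel comparison. The replicate numbers recur in each group without a stated meaning. Among deviations from the group means, each of the 15 arrays lay closest to an array that shared its number, but the correlations ranged from 0.03 to 0.52 and all 3 exceeded 0.1 in 5 of 10 pairs of groups. The number was therefore used as a block in an alternative, whose changed calls are given beside the comparisons of those pairs. Further alternatives dropped the filter, averaged the probe sets of a gene, or used no probe sets of shared sequence, only the groups compared, array weights, centring on the median gene, or 1 array fewer.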

Additional observations from a re-analysis of the deposited data

Results flagged for a closer look

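The difference between the vessels at 24 h differed from that at 4 h, by the interaction term of limma, for 8 of the 30 genes tested (12.7% of all genes were called). As the log2 difference at 24 h minus that at 4 h, Msn stood at -4.1 (adjusted p = 0.00101), Enah at -3.61 (0.00406), Itga3 at -2.7 (0.000212), Src at -2.62 (0.00299), Flna at -2.51 (0.00173), Actn1 at -2.42 (0.0364), Lims1 at -2.32 (0.0125) and Parva at 1.3 (0.00406). In each of the 8 the 2 vessels did not overlap at 24 h. The 8 were picked by their calls on the same arrays, so this separation adds no support. The share of all genes without overlap was not computed. The interaction was called in every probe set of Msn, Lims1, Src and Actn1 that was off the background, in the only one of Flna, and in 1 probe set each of Itga3, Enah and Parva.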

How the results depend on the processing

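Across 22 alternatives, 15 of which left out 1 array, 84 of 119 called results of the 30 genes were called in each, among them 8 of 12 vessel differences at 24 h and 6 of 8 interactions. For the vessels at 24 h, Fermt2, Ilk, Itgb5 and Parva were the 4 that lost their call somewhere: Parva without shared-sequence probe sets (0.49, adjusted p = 0.167) or with only the groups compared, Ilk and Fermt2 without the filter, Fermt2 also in the mean of probe sets, and Fermt2 and Itgb5 with only the groups compared. Without shared-sequence probe sets Parva turned to 0.33 in TCD and 0.82 in RWV at 24 h against fresh cells and to 0.23 and 1.06 against 4 h, and Src to -0.03 in RWV at 24 h against fresh cells, since another probe set then stood for the gene. In the mean of probe sets Tln1 turned to -0.02 in TCD and -0.02 in RWV at 24 h, and without fresh replicate 1 the uncalled Itgb4 turned to 0.05 in TCD at 4 h (range -0.46 to 0.05 over the fits with 1 array left out).

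Without the filter, the 8 genes set aside as background were tested too. Then 12 of 38 genes were called between the vessels at 4 h, all lower. Besides background genes these were Itgb1, Tln2, Fermt2 and Parva. The background medians at 4 h were 0.0188 to 0.066 on the TCD arrays and -0.0649 to -0.0169 on the RWV arrays. In TCD, 28 were called between 24 h and 4 h (16 higher, 12 lower). The share of all genes called without the filter was not computed, so neither count is read as a result. The count at 4 h was 1 with the mean of probe sets, 1 with only the groups compared and 3 with array weights. TCD at 4 h against fresh cells gave 4 calls with only the groups compared. Leaving out 1 array gave 0 to 1 call between the vessels at 4 h and 9 to 12 at 24 h, 7 to 9 for the interaction, 7 to 12 and 10 to 13 at 4 h against fresh cells in TCD and RWV, 22 to 24 and 17 to 21 at 24 h, and 18 to 20 and 13 to 16 between the times. The call at 4 h between the vessels was Fermt2 (-0.7) without RWV 24 h replicate 2 and Parva (-0.49) without replicate 3. Where no cause is given above, it was not tested.

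With the replicate block, the counts were 0, 12, 8, 11, 13, 24, 21, 19 and 16 in the same order. In TCD at 4 h against fresh cells it lost Fermt2 (adjusted p = 0.0599) and Rdx (0.0558) and gained Itgav (0.0498) and Tln1 (0.0361). Ilk gained a call in RWV at 4 h (0.0405) and 24 h (0.0484), Itga3 in RWV at 24 h (0.025), Bcar1 in TCD at 24 h (0.019) and Actn4 in TCD between the times (0.0498). It changed no other call of the 30 genes. The values hold no signal level, so whether a gene was expressed in fresh cells, and folds against groups near the background, cannot be fixed from them.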
